A study of Mus musculus with 6 samples.

Results

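The epidermal growth factor receptor (EGFR, or ERBB) family, its ligands and its feedback inhibitor were examined in splenic CD4+ T cells that had been sorted by the presence or absence of Lrig1 on their surface. The 8 genes were chosen by symbol, as receptors that the LRIG1 protein restrains, their ligands and a feedback gene, out of 45777 genes in the deposited tables. They were the receptors *Egfr*, *Erbb2* and *Erbb3*, the ligands *Areg*, *Hbegf*, *Tgfa* and *Btc*, and the feedback inhibitor *Errfi1*. The cells came from the spleens of female C57BL/6 mice, a common inbred strain, aged 7 weeks, and mRNA of CD4+Lrig1+ and of CD4+Lrig1- T cells was sequenced in bulk. No treatment or engineered allele is given for either group. The labels list 3 samples of each group, and do not say how many mice were pooled for a sample. The data analysed here were 4 libraries, held in a pair of tables with 1 CD4+Lrig1+ and 1 CD4+Lrig1- library each, called set 1 and set 2.

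ERBB receptors are single-pass receptor tyrosine kinases. A ligand of the EGF family is made as a membrane-anchored precursor, is released by a protease such as ADAM17, and brings receptors together as dimers that signal through the RAS-MAPK and PI3K-AKT pathways. ERBB2 has no known ligand of its own, and ERBB3 has little kinase activity, so that each acts mainly with a partner receptor. LRIG1 binds ERBB receptors and promotes their ubiquitination and degradation, and ERRFI1 (also called MIG6) binds their kinase domain and inhibits it. In T cells the best known member is amphiregulin, which regulatory T (Treg) cells make during tissue repair.

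The libraries held from 44865070 to 59977951 estimated read counts on genes, and the counts of each gene were summed over its transcripts. Values are given as counts, as CPM (counts scaled to library size with TMM factors) and, where genes are compared with each other, as FPKM, which also divides by transcript length. *Lrig1* itself, the gene used for the sort, had log2 ratios (CD4+Lrig1+ to CD4+Lrig1-) of 1.55 in set 1 and 1.81 in set 2, and the 8 Treg cell markers summed to 2549 and 2352 CPM in CD4+Lrig1+ against 267 and 186 CPM in CD4+Lrig1- T cells. The 6 CD4 T cell markers were present in every library, at a summed 3144 to 5043 CPM. The libraries of one set deviated together from their group means (correlation 0.883 across genes, which are not independent replicates), so each gene is described within its set first. The libraries of a group differed far beyond sampling noise and were counted as separate samples. Nothing in the labels says that they came from separate mice, so p-values measure only the spread between these libraries.

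The 8 genes spanned a wide range of levels, and most were low. Per length, the mean over the 4 libraries was 2.64 FPKM for *Errfi1*, 2.15 for *Erbb3*, 0.755 for *Areg*, 0.416 for *Hbegf*, 0.231 for *Btc*, 0.0378 for *Erbb2*, 0.0295 for *Egfr* and 0.00688 for *Tgfa*. Among the 22988 genes with a count in any library, *Errfi1* and *Erbb3* lay at the 57.4th and 55.5th percentile of mean FPKM, *Areg* at the 47.1st, and *Egfr* and *Erbb2* at the 19.8th and 22.1st. In CD4+Lrig1+ T cells *Erbb3* led with 2.61 ± 0.666 FPKM (SD, n = 2), next to *Errfi1* with 2.47 ± 0.270 and *Areg* with 1.29 ± 0.987. *Erbb3* and *Errfi1* overlapped, and both *Areg* libraries (1.99 and 0.592) lay below them. In CD4+Lrig1- T cells the order was *Errfi1* (2.80 ± 0.597), *Erbb3* (1.69 ± 0.404), *Hbegf* (0.413 ± 0.0716), *Btc* (0.335 ± 0.0154) and *Areg* (0.220 ± 0.00994). No neighbours in this order overlapped between libraries, though each group had only 2. *Areg* was thus the fifth in CD4+Lrig1- and the third in CD4+Lrig1+ T cells. *Egfr* and *Erbb2* overlapped in CD4+Lrig1+ T cells (0.0208 ± 0.0158 and 0.0396 ± 0.0214 FPKM).

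**Figure D1:**
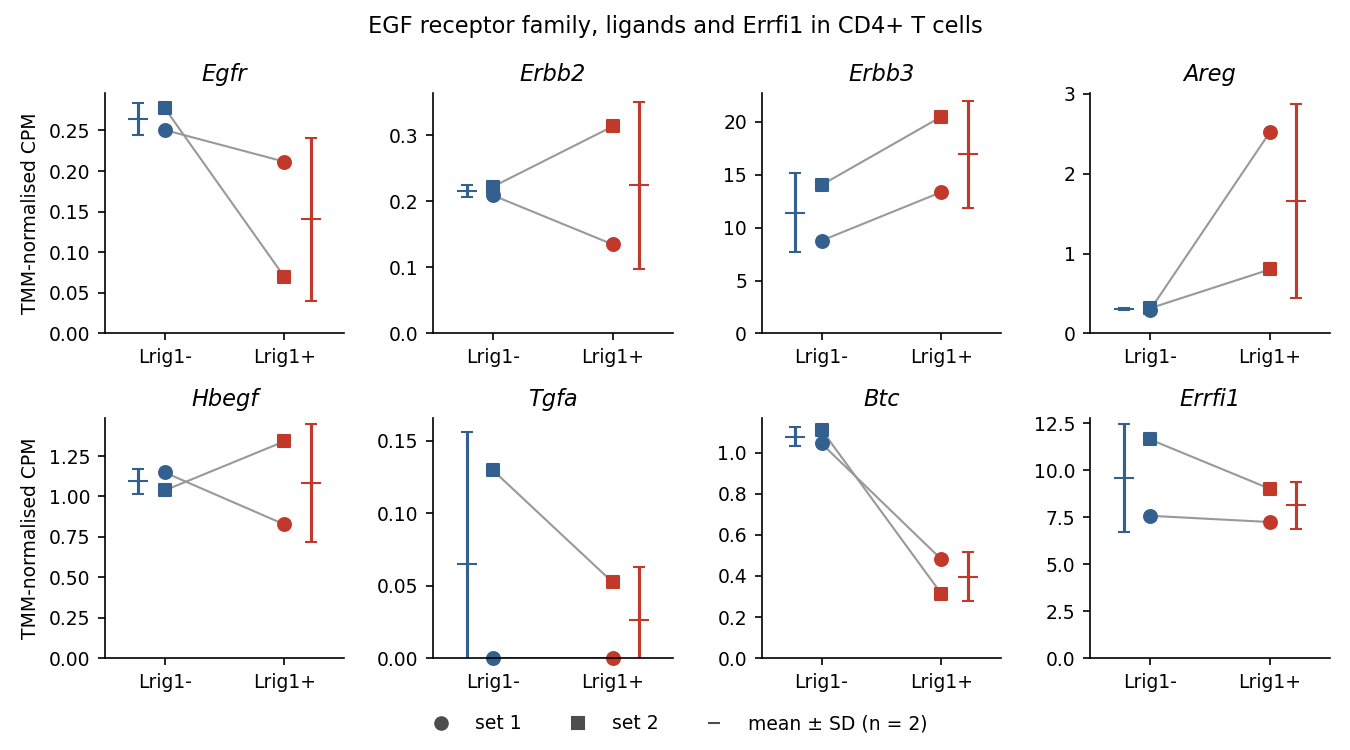
TMM-normalised CPM of the 8 genes in each library, with CD4+Lrig1- in blue and CD4+Lrig1+ in red, circles for set 1, squares for set 2, grey lines joining the libraries of a set and bars at the mean ± SD (n = 2, cut at 0). *Areg* was higher and *Btc* lower in both CD4+Lrig1+ libraries than in either CD4+Lrig1- library, and *Erbb3* was higher within each set.

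Among the receptors, *Erbb3* was the one with a substantial signal. *Erbb3* (gene ID 13867, chromosome 10 of GRCm38, 128567523 to 128589635) had 695 counts in CD4+Lrig1+ against 420 in CD4+Lrig1- T cells of set 1, and 1177 and 758 counts in set 2. In each set the CD4+Lrig1+ library was the higher one, but the CD4+Lrig1- library of set 2 (14.03 CPM) exceeded the CD4+Lrig1+ library of set 1 (13.4 CPM), so the groups overlapped. The ratio was almost the same in both, 1.52-fold in set 1 (95% interval 1.35 to 1.72) and 1.46-fold in set 2 (1.33 to 1.60). These intervals, like all those given here for a pair of libraries, are exact conditional binomial intervals and cover counting error only. Over the 4 libraries *Erbb3* had a mean of 16.9 ± 5.04 CPM in CD4+Lrig1+ against 11.4 ± 3.72 CPM in CD4+Lrig1- T cells (SD, n = 2). The log2 fold change of 0.57 (SE 0.43) did not pass edgeR's quasi-likelihood test (adjusted p = 1.00 over all genes). With the set as a term of the same edgeR model, the log2 fold change was 0.58 (SE 0.11) and passed it, with an adjusted p = 0.00742. Leaving out single libraries, with no term for the set, gave log2 fold changes from 0.22 to 0.95.

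*Egfr*, the founding receptor of the family, was near the limit of detection. *Egfr* (gene ID 13649, chromosome 11, 16752203 to 16913907) had 11 counts in CD4+Lrig1+ against 12 in CD4+Lrig1- T cells of set 1, and 4 against 15 counts in set 2. All of these counts were on the long transcript variant, and the short variant had 0 in every library. Both CD4+Lrig1+ libraries (0.212 and 0.0696 CPM) lay below both CD4+Lrig1- libraries (0.251 and 0.278 CPM), and the separation came mostly from set 2. There the CD4+Lrig1- library was 3.99-fold higher (95% interval 1.27 to 16.5), whereas in set 1 it was 1.18-fold higher, with an interval from 0.479 to 2.96. The log2 fold change was -0.90 (SE 1.02), with an adjusted p = 1.00 in edgeR's quasi-likelihood test and 0.425 with the set as a term. Omitting CD4+Lrig1+ of set 2 gave -0.32, and omitting CD4+Lrig1+ of set 1 gave -1.86.

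*Erbb2*, the shared partner of the other receptors, was as low as *Egfr* and did not keep one direction. *Erbb2* (gene ID 13866, chromosome 11, 98412484 to 98437716) had 7 counts in CD4+Lrig1+ against 10 in CD4+Lrig1- T cells of set 1, and 18 against 12 counts in set 2. The log2 ratio was -0.63 in set 1 and 0.50 in set 2, and both counting intervals included 0 (-2.26 to 0.91 and -0.64 to 1.68). A difference of about this size was not detectable at this depth. The fourth receptor of the family, *Erbb4*, had 0 counts in all 4 libraries, where 3 counts, taken as the limit that a count of 0 allows, would be 0.0522 to 0.0627 CPM.

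Of the 6 ligands tested, *Areg* had the largest log2 fold change over the 4 libraries, although *Nrg2* differed more within set 1 and *Btc* within set 2. *Areg* (gene ID 11839, chromosome 5, 91139599 to 91148432) encodes amphiregulin, a ligand of EGFR. It had 131 counts in CD4+Lrig1+ against 14 in CD4+Lrig1- T cells of set 1, and 46 against 17 counts in set 2. Both CD4+Lrig1- libraries were alike, at 0.292 and 0.315 CPM, and the CD4+Lrig1+ libraries stood above them at 2.52 and 0.801 CPM, so the groups did not overlap. The ratio was 8.62-fold in set 1 (95% interval 4.96 to 16.2) and 2.54-fold in set 2 (1.43 to 4.73), and these counting intervals did not overlap each other. The means were 1.66 ± 1.21 CPM in CD4+Lrig1+ against 0.304 ± 0.0158 CPM in CD4+Lrig1- T cells (SD, n = 2). The log2 fold change was 2.44 (SE 0.87), with an unadjusted p = 0.0483 and an adjusted p = 0.886 in edgeR's quasi-likelihood test. With the set as a term it was 2.24 (SE 0.54) and passed, with an adjusted p = 0.0209 in edgeR, and DESeq2's Wald test with the same term gave an adjusted p = 0.0376. Without the CD4+Lrig1+ library of set 1 the log2 fold change was 1.42, and without that of set 2 it was 3.04, in fits with no term for the set.

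The promoters of *Areg*, of its neighbour *Btc*, which differed the other way, and of the feedback gene *Errfi1* are shown because the first and the last share one element. The sequences are the 250 bases before the transcript start from RefSeq annotation of GRCm38.p6, 5′ to 3′ on the strand of the gene, and capitals mark the cAMP response element (CRE) TGACGTCA, which reads the same on both strands. *Areg* lies on the plus strand (chr5:91139349-91139598), *Btc* on the minus strand (chr5:91402995-91403244), and variant 2 of *Errfi1* on the plus strand (chr4:150854820-150855069).
Areg: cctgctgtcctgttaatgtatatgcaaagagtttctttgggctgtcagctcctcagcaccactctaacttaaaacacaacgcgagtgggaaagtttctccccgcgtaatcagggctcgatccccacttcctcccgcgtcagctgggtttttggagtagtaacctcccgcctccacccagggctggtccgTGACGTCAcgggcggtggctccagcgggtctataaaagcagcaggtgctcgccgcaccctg
Btc: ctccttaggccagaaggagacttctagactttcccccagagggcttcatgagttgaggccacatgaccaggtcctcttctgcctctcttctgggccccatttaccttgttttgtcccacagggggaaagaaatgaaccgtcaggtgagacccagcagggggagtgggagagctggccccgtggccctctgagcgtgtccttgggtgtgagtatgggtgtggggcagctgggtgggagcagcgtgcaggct
Errfi1: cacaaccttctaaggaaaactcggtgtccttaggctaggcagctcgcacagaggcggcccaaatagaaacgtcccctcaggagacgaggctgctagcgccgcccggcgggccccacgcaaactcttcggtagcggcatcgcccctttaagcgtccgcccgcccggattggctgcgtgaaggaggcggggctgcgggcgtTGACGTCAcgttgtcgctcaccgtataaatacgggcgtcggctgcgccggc
The element began 61 bases before the start of *Areg* and 51 bases before that of *Errfi1* variant 2, and the window of *Btc* held none. Of 32851 RefSeq promoter windows of the same length, 508 (1.55%) held it. The windows of *Egfr*, *Erbb2*, *Tgfa* and the other start of *Errfi1* held none. The AP-1 letters TGANTCA, searched on both strands and present in 6.75% of all windows, were in none of these 7 windows. Windows of *Erbb3* and *Hbegf* were not among the 7, so their letters are not described here. A match is a description of the letters only.

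*Btc*, which encodes betacellulin, a ligand of EGFR and ERBB4, ran in the opposite direction to *Areg*. *Btc* (gene ID 12223, chromosome 5, 91357261 to 91402994) had 25 counts in CD4+Lrig1+ against 50 in CD4+Lrig1- T cells of set 1, and 18 against 60 counts in set 2. The CD4+Lrig1- libraries were again alike (1.04 and 1.11 CPM), and both CD4+Lrig1+ libraries (0.481 and 0.313 CPM) lay below them. The CD4+Lrig1- library was 2.17-fold higher in set 1 (95% interval 1.32 to 3.66) and 3.54-fold higher in set 2 (2.06 to 6.38). The log2 fold change of CD4+Lrig1+ over CD4+Lrig1- was -1.44 (SE 0.69; adjusted p = 1.00 in edgeR's quasi-likelihood test). With the set as a term it was -1.46 (SE 0.47), and its adjusted p = 0.0594 in edgeR missed the threshold.

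*Areg* and *Btc* belong to a run of 4 EGF family ligand genes that spans 375 kb of chromosome 5, from *Epgn* at 91027517 over *Ereg* and *Areg* to the end of *Btc* at 91402994. *Ereg* (epiregulin) had 0 counts in every library. *Epgn* (epigen) had 4 counts in the CD4+Lrig1- library of set 1 and 0 in the other 3. Within this run, 1 gene was thus more abundant in CD4+Lrig1+, 1 was more abundant in CD4+Lrig1- T cells, and the outer 2 on the side of *Epgn* were at or near 0.

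The remaining ligands did not separate the groups. *Hbegf* (gene ID 15200, chromosome 18, 36504927 to 36515805), which encodes the heparin-binding ligand of EGFR and ERBB4, had 43 counts in CD4+Lrig1+ against 55 in CD4+Lrig1- T cells of set 1, and 77 against 56 counts in set 2. Its log2 ratio was -0.47 in set 1 and 0.37 in set 2, each with a counting interval that included 0 (-1.08 to 0.13 and -0.14 to 0.89), and the log2 fold change over all libraries was -0.01 (SE 0.63; adjusted p = 1.00 in edgeR). *Tgfa* (gene ID 21802, chromosome 6, 86195038 to 86275743), which encodes transforming growth factor alpha, a ligand of EGFR, had 0 counts in both libraries of set 1. In set 2 it had 3 counts in CD4+Lrig1+ against 7 in CD4+Lrig1- T cells, a ratio of 0.403 with a 95% interval from 0.0673 to 1.77. *Tgfa* was the 1 gene of the 8 left out by edgeR's filter on low counts, so 7 were tested.

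The feedback inhibitor *Errfi1* had the highest mean FPKM of the 8 genes over all 4 libraries, though not in CD4+Lrig1+ T cells alone. *Errfi1* (gene ID 74155, chromosome 4, 150853796 to 150868889) had 377 counts in CD4+Lrig1+ against 363 in CD4+Lrig1- T cells of set 1, and 518 against 629 counts in set 2. At 7.25 and 9.02 CPM in CD4+Lrig1+ and 7.58 and 11.6 CPM in CD4+Lrig1- T cells, the groups overlapped. The CD4+Lrig1- library was 1.05-fold higher in set 1 (95% interval 0.903 to 1.21) and 1.29-fold higher in set 2 (1.15 to 1.45). The log2 fold change was -0.24 (SE 0.41; adjusted p = 1.00 in edgeR) and -0.22 (SE 0.14; adjusted p = 0.296) with the set as a term. Nearly all counts were on transcript variant 2, whose promoter is shown above. That variant held 100% of the counts (exact interval 99.0% to 100%) in CD4+Lrig1+ and 89.8% (86.2% to 92.7%) in CD4+Lrig1- T cells of set 1, and 98.1% (96.5% to 99.1%) and 100% (99.4% to 100%) in set 2. The variants share most of their sequence and the split between them is an estimate.

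**Figure D2:**
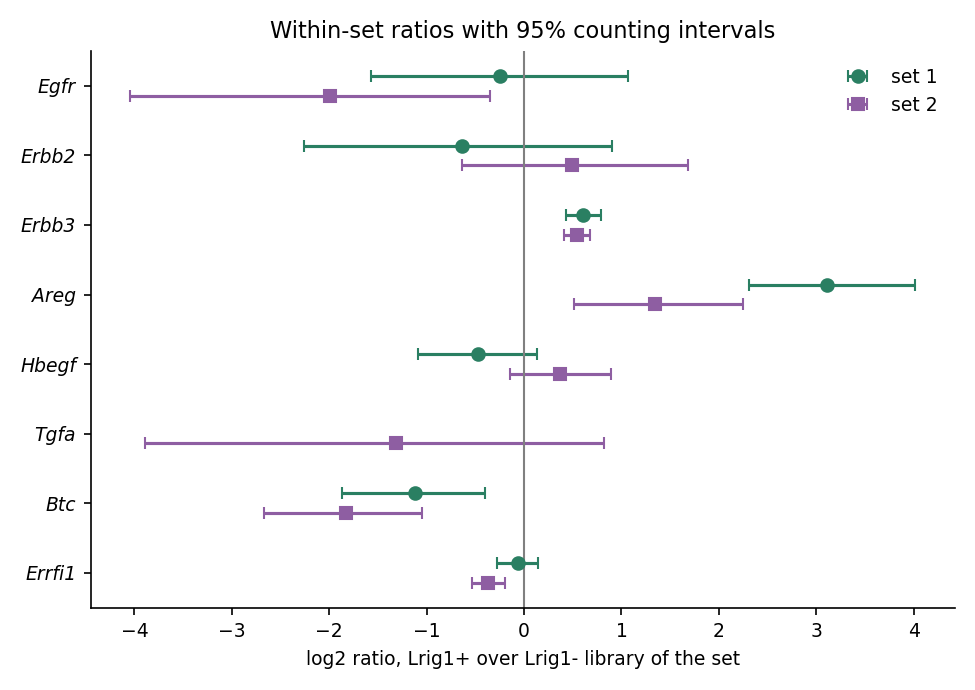
Log2 ratio of the CD4+Lrig1+ to the CD4+Lrig1- library within set 1 (green circles) and set 2 (purple squares), with 95% intervals for counting error. *Erbb3* and *Areg* lay above 0 and *Btc*, *Egfr* and *Errfi1* below 0 in both sets. The set 1 intervals of *Egfr* and *Errfi1* included 0. *Erbb2* and *Hbegf* lay on opposite sides of 0, and *Tgfa* had no counts in set 1.

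Over the 7 genes tested, edgeR's quasi-likelihood test called 0 higher and 0 lower in the CD4+Lrig1+ group (adjusted p under 0.05), as it did over all 16123 genes tested (0% in each direction). At an unadjusted p under 0.05 it had 674 genes higher (4.18%) and 227 lower (1.41%), and of the 7 *Areg* was higher and none lower. DESeq2's Wald test and edgeR's exact test, also without a term for the set, called 0 of the 7, against 1.61% and 1.22% of all genes higher and 0.31% and 0.105% lower. With the set as a term, a model that leaves 1 residual degree of freedom, it called 2 of the 7 higher (*Erbb3* and *Areg*) and 0 lower, against 14.6% of all genes higher and 12.8% lower. DESeq2's Wald test with the same term called *Erbb3* and *Areg* too, against 11.7% of all genes higher and 12.5% lower. The groups did not overlap in CPM for *Areg* (higher) and for *Egfr* and *Btc* (lower), a separation that 14.3% of all genes showed in the higher and 11.8% in the lower direction. A difference of at least 1.5-fold the same way in both sets was seen for *Areg*, as in 12% of all genes, and for *Btc*, as in 7.39%. For 1 gene in 2 + 2 libraries, the smallest p that exact permutation allows is 0.333 (two-sided).

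Of the 8 receptor and ligand genes of the family beyond those described, 3 had 0 counts in every library (*Erbb4*, *Ereg* and *Nrg3*). Among the neuregulins, the ligands of ERBB3 and ERBB4, *Nrg1* had 5 counts in the CD4+Lrig1- library of set 2 and 0 in the other 3 libraries. *Nrg2* had 2 and 8 counts in CD4+Lrig1+ against 21 and 18 in CD4+Lrig1- T cells, and its groups did not overlap. *Nrg4*, a ligand of ERBB4, had a mean of 0.586 FPKM, above *Hbegf* and *Btc*, with counts of 80 and 67 in CD4+Lrig1+ against 65 and 40 in CD4+Lrig1- T cells. *Egf* had 80 and 8 counts in CD4+Lrig1+ against 101 and 12 in CD4+Lrig1- T cells, and so differed far more between the sets than between the groups. None of *Nrg2*, *Nrg4* and *Egf* passed edgeR's or DESeq2's test with or without the set as a term (adjusted p from 0.115 to 0.460 in edgeR with the term).

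The genes that restrain or feed back on ERBB receptors ranged from a few counts to some of the most abundant genes, such as *Cbl* at the 91.7th percentile of FPKM. All 15 genes of this list, *Errfi1* included, were tested, with a median log2 fold change of 0.07 against -0.04 for all genes tested. In edgeR's quasi-likelihood test 0 of them passed without the set term. With it 4 were higher (*Lrig1*, *Spry1*, *Socs5* and *Dusp6*) and 0 lower, against 14.6% and 12.8% of all genes. The list and its median include *Lrig1*, whose protein defined the sort, so its call is not independent of the sort. DESeq2's Wald test called *Spry1* without the term (adjusted p = 7.24e-06), and with it *Lrig1*, *Spry1* and *Socs5* higher and *Cbl* lower, while *Dusp6* missed the threshold (adjusted p = 0.0703). *Spry1*, an inhibitor of RAS-MAPK signalling, had 2300 and 2125 counts in CD4+Lrig1+ against 230 and 119 in CD4+Lrig1- T cells, log2 ratios of 3.20 and 4.07. *Socs5*, which promotes EGFR degradation, had log2 ratios of 0.91 and 0.64, and *Dusp6*, a phosphatase of ERK, had 0.40 and 0.22. *Spry2*, a relative of *Spry1*, had log2 ratios of -0.99 and -1.39 (30 and 45 counts against 55 and 111) and missed the threshold with the term (adjusted p = 0.0526 in edgeR).

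*Lrig2* and *Lrig3*, the paralogues of *Lrig1*, did not follow it. *Lrig2* had 2564 and 1313 counts in CD4+Lrig1+ against 2593 and 1696 in CD4+Lrig1- T cells, and *Lrig3* had 42 and 31 against 43 and 21. The ubiquitin ligase genes *Cbl* and *Cblb*, whose products mark EGFR for degradation, were abundant and close between the groups, with log2 ratios of -0.19 and -0.25 for *Cbl* and -0.09 and -0.12 for *Cblb*. None of these 4 genes passed edgeR's quasi-likelihood test with or without the set term, and *Cbl* was called lower by DESeq2 with the term (adjusted p = 0.00143, against 0.0939 in edgeR).

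Of the 5 genes of ligand shedding, 1 was lower and 0 were higher with the set as a term in edgeR, against 12.8% and 14.6% of all genes. Without the term 0 passed (median log2 fold change 0.01). The sheddases *Adam10* and *Adam17*, which cut ligand precursors from the membrane, had log2 ratios of 0.22 and 0.15, and of 0.04 and -0.03. *Rhbdf2*, which encodes iRhom2, the partner that carries ADAM17 to the surface, had 1126 and 628 counts in CD4+Lrig1+ against 1606 and 993 in CD4+Lrig1- T cells and was the lower gene (log2 ratios -0.63 and -0.75; adjusted p = 0.00218 with the term in edgeR). Its relative *Rhbdf1* was low, with 99 and 51 counts against 30 and 38, and did not pass.

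Downstream of the receptors, 29 of the 30 adaptor and effector genes were tested. With the set as a term in edgeR 1 was higher and 9 were lower, against 14.6% and 12.8% of all genes, and without it 0 passed (median log2 fold change -0.09). The higher gene, named after its values were seen, was *Stat5a* (log2 ratios 0.57 and 0.43). *Pik3cb*, a catalytic subunit of PI3K, was the gene of this list that differed by at least 1.5-fold in both sets, with 518 and 534 counts in CD4+Lrig1+ against 913 and 993 in CD4+Lrig1- T cells (log2 ratios -0.94 and -0.98; adjusted p = 7.42e-04 with the term in edgeR).

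Of the other receptor tyrosine kinases, 7 of 9 were tested. With the set as a term in edgeR, *Axl* and *Mertk*, receptors of the TAM family, were higher and 0 lower, against 14.6% and 12.8% of all genes. *Axl* had 2925 and 5631 counts in CD4+Lrig1+ against 338 and 1079 in CD4+Lrig1- T cells (log2 ratios 2.99 and 2.30), and *Mertk* had 51 and 219 against 16 and 117. The call of *Mertk* was lost in DESeq2 with the term (adjusted p = 0.154). Of the 10 genes of the myeloid marker list, 4 were higher and 3 lower in CD4+Lrig1+ in both sets. *C1qa* had 198 and 1940 counts in CD4+Lrig1+ against 27 and 475 in CD4+Lrig1- T cells. With the term in edgeR *C1qa*, *C1qb* and *Csf1r* were called higher, and *Itgam*, *Csf3r* and *S100a8* lower. *Adgre1*, *Cd68* and *Lyz2* changed direction between the sets. The part of myeloid cells in *Axl* and *Mertk* was not tested. *Met*, *Ret*, *Kdr* and *Flt1* had from 0 to 30 counts in each library, and *Pdgfra* had 0 in all. Of the 8 immediate early genes, which many receptors induce, *Fosb* and *Myc* were higher and *Jun* and *Ier2* lower with the term in edgeR. Of all genes tested, 14.6% were higher and 12.8% lower. *Fosb* had the largest log2 ratios of the immediate early genes called (0.86 and 1.21). *Myc*, *Jun*, *Ier2* and the kinase genes at low counts were named after their values were seen. Without the term 0 genes of either list passed in edgeR's quasi-likelihood test, and DESeq2's Wald test called *Axl* (adjusted p = 0.0280).

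**Figure D3:**
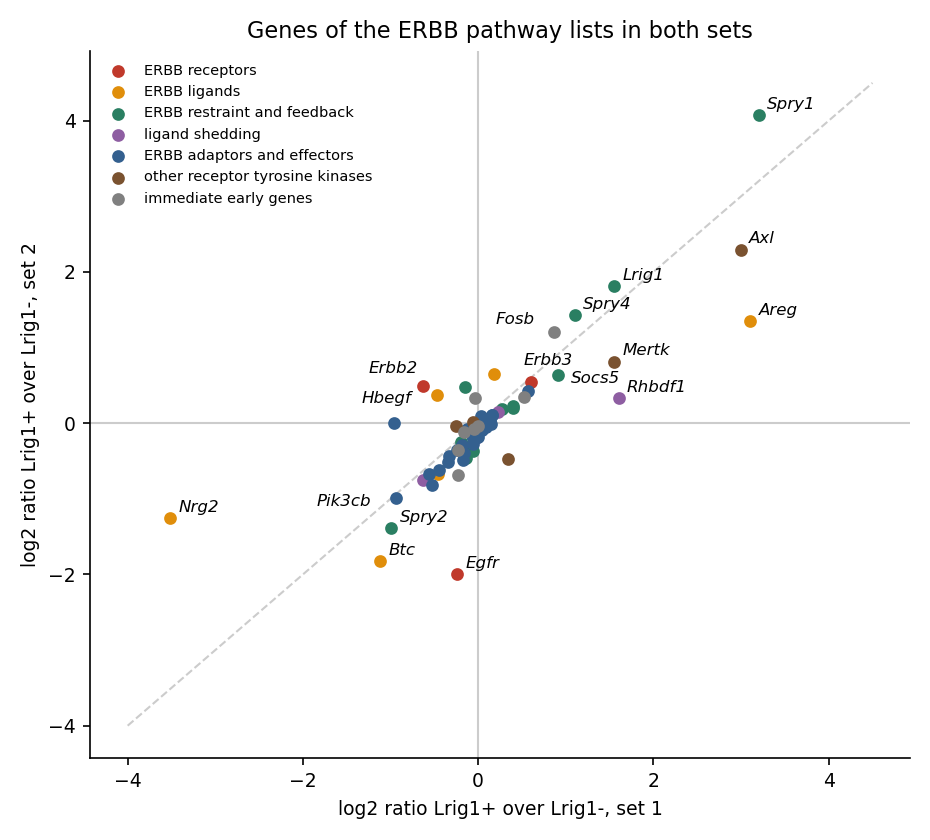
Log2 ratio, CD4+Lrig1+ to CD4+Lrig1-, in set 1 (horizontal) against set 2 (vertical) for the tested genes of the 7 pathway lists with counts in every library, coloured by list, with a dashed line of equal ratios. *Areg*, *Erbb3*, *Spry1* and *Axl* lay above 0 and *Btc*, *Egfr* and *Spry2* below 0 in both sets, while *Erbb2* and *Hbegf* lay on opposite sides of 0.

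Markers of other cells moved with some of these genes. In bulk RNA, fewer cells of a type and less RNA per cell cannot be told apart. *Btc* and *Egfr* were lower in both CD4+Lrig1+ libraries than in either CD4+Lrig1- library, but neither had an adjusted p under 0.05 in any fit. *Egfr* had 11 against 12 counts in set 1. The 6 dendritic cell markers summed to 14.1 and 12.4 CPM in CD4+Lrig1+ against 57.0 and 55.1 CPM in CD4+Lrig1- T cells (5 of 6 lower in both sets, none at 0). The 5 endothelial markers summed to 0.865 and 0.801 against 2.63 and 3.31 CPM, with *Emcn* at 0 counts in every library. Of these, 2 were lower in both sets (*Cdh5* and *Kdr*), *Vwf* changed direction and *Tek* had at most 2 counts. The 2 CD8 T cell markers summed to 14.1 and 51.6 against 19.5 and 97.3 CPM. The erythroid sums and the basophil and mast cell sums were lower in CD4+Lrig1+ in both sets too. The CD4 T cell, Treg cell, myeloid, epithelial and stromal sums were higher in both. The part of any of these cell types in the values of *Btc* and *Egfr* was not tested.

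*Areg* and *Erbb3* were higher in CD4+Lrig1+ T cells within each set. The 5 epithelial markers summed to 11.7 and 16.3 CPM in CD4+Lrig1+ against 3.61 and 6.63 CPM in CD4+Lrig1- T cells. Most of this was *Epcam* (10.7 and 15.1 against 2.30 and 3.54 CPM), while *Krt19* was at 0 in every library and *Krt8* had at most 2 counts. *Cdh1*, on the same list, ran the other way (0.577 and 0.488 against 1.32 and 2.83 CPM) and was called lower with the set term in edgeR. The 5 stromal markers summed to 1.87 and 1.98 against 0.313 and 0.981 CPM, with *Col3a1* and *Dcn* at 0. The 10 myeloid markers summed to 48.2 and 240 against 42.5 and 208 CPM, with 4 of 10 higher and 3 lower in both sets, and the Treg cell markers were higher in 8 of 8. The part of these cells in *Areg* and *Erbb3* was not tested. The 7 markers of basophils and mast cells summed to 0.769 and 2.002 CPM in CD4+Lrig1+ against 0.961 and 3.18 CPM in CD4+Lrig1- T cells, and their part in *Areg* was not tested either. The 8 B cell markers summed to 86.0 and 349 against 66.0 and 673 CPM, with 6 of 8 lower in CD4+Lrig1+ in both sets. Their sums were higher in set 2 in both groups, as *Erbb3* was. The CD4 T cell markers of the sorted cells were higher in set 2 too. They summed to 3340 and 5043 CPM (set 1 and set 2) in CD4+Lrig1+ and 3144 and 4880 CPM in CD4+Lrig1- T cells. So were the CD8 T cell, NK cell, erythroid, myeloid, epithelial, stromal, and basophil and mast cell sums. The Treg cell, dendritic cell and platelet sums were lower in set 2 in both groups. The part of B cells in *Erbb3* was not tested.

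**Figure D4:**
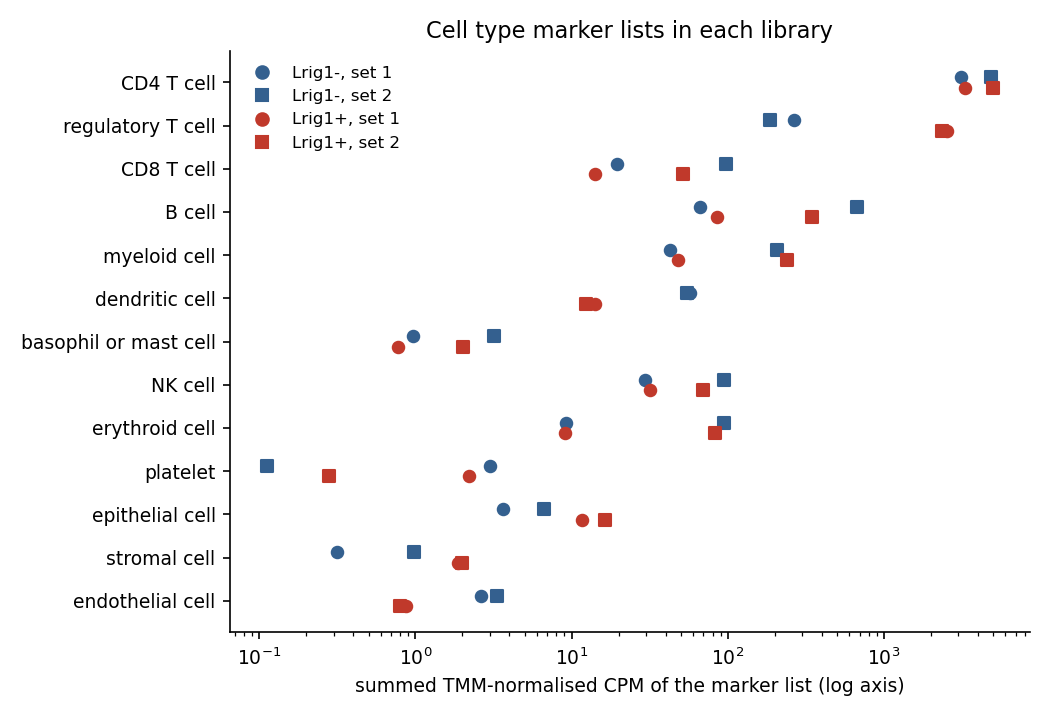
Summed TMM-normalised CPM (log axis) of 13 lists of cell type markers in each library, with CD4+Lrig1- in blue, CD4+Lrig1+ in red, circles for set 1 and squares for set 2. The Treg cell markers were at 2352 to 2549 CPM in CD4+Lrig1+ and 186 to 267 CPM in CD4+Lrig1- T cells, and the dendritic cell markers were lower in both CD4+Lrig1+ libraries.

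The genes whose pattern over the 4 libraries was most like that of a member were found for the 4 members with a mean of at least 50 counts, among 12785 genes, by the distance between log2 CPM values centred on each gene's mean. For *Erbb3* these were *Smim24* (distance 0.0300) and *Pnkd* (0.0327), and for *Errfi1* they were *Gm33454* (0.0354) and *H2-Q10* (0.0572). *Areg* had no gene as close, the nearest being *4921525O09Rik* (0.394) and *Nbea* (0.449), and *Nbea* had 6.58 and 2.09 CPM in CD4+Lrig1+ against 1.02 and 0.685 CPM in CD4+Lrig1- T cells. For *Hbegf* they were *Gm41523* (0.118) and *Ccdc107* (0.119). With 4 libraries such a likeness is a description only.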

How the data were processed

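mRNA libraries of the sorted T cells were read as paired ends. The authors used Trimmomatic 0.38 for trimming, HISAT2 2.1.0 for mapping and StringTie 2.1.3b for transcripts, and per the submitters' processing notes the build was GRCm38. The estimated counts and the FPKM values were deposited per transcript, the counts as whole numbers and not normalized, the FPKM scaled by length and mapped fragments. Both were summed per gene symbol. The labels list 6 samples, but only the columns of 4 libraries name their group. A further 6 columns of per-sample values, whose names do not give the group, were not used.

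In R 4.3.3, edgeR 4.0.16 (filterByExpr, TMM scaling) gave the main quasi-likelihood test, with Benjamini-Hochberg adjustment over 16123 genes. Alternatives were a term for the table (set), DESeq2 1.42.0, edgeR's exact test, other scalings and filters, limma 3.58.1 on log2 FPKM with pseudocounts of 1 or 0.1, and leaving out each library. The procedure was tested on simulated counts. The depth was 44865070 to 59977951 counts per library. Within a set, log2 ratios used TMM-scaled counts with scipy 1.17.1 and Python 3.11.15. All receptor, ligand, restraint and shedding genes could be named, and of the other lists at most 5 genes each that were called with the table term and differed by 1.5-fold in both sets (*Pik3cb*, *Axl*, *Mertk* and *Fosb*). Other genes of those lists were named after their values were seen. Up to 2 nearest genes were named for each member with a mean of at least 50 counts. The members and lists were chosen with earlier results of these data known.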

Additional observations from a re-analysis of the deposited data

How the results depend on the processing

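Without a term for the set, edgeR's quasi-likelihood test called 0 genes in either direction, as it did with DESeq2 size factors, library totals, no filter or at least 10 counts in every library, and as limma did with both pseudocounts. Higher and lower calls numbered 260 and 50 by DESeq2's Wald test, and 196 and 17 by the exact test of edgeR. The columns carry no replicate numbers, so the replicate block was the table that holds a library. It called 2358 genes higher (14.6%) and 2056 lower (12.8%), and the DESeq2 Wald test with it 1848 (11.7%) and 1969 (12.5%). Of the 7 members tested, 2 were then called higher by either tool. Of the 66 other genes tested on the pathway lists, edgeR with the block called 9 higher and 12 lower, and DESeq2 7 and 14. Without the block the DESeq2 Wald test called 2 of them higher and edgeR's exact test 1. Fits that each left out 1 library called 1 to 88 genes higher and 0 to 2 lower, with the 88 found when CD4+Lrig1- of set 1 was omitted, and 0 to 1 list genes higher. They have no term for the set, and the cause was not tested.

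Of 96 log2 fold changes of the members under an alternative, 83 kept their direction and their side of the threshold, 4 (*Erbb3* and *Areg* with the block) passed it and 9 turned sign. *Erbb2* turned to -0.012 with the block and -0.075 in DESeq2 with it. *Hbegf* turned to 0.018 with library totals and to 0.0041 and 0.0034 in limma. With single libraries left out the log2 fold change ran from -0.67 to 0.57 for *Erbb2*, from -0.40 to 0.32 for *Hbegf* and from -0.47 to 0.11 for *Errfi1*, and these turns were not past a threshold. Of 30 ratios within a set, 1 left its counting interval, that of *Egfr* in set 2, which was -0.33 with log2(FPKM + 0.1), where the pseudocount exceeds both values. Depth limits *Egfr*, *Erbb2* and *Tgfa*, which had at most 18 counts in a library.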
